A study of Homo sapiens with 2 samples.

Results

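The genes described here encode 10 subunits of the mitochondrial F1Fo ATP synthase, all of them nuclear genes. They were taken by Ensembl gene ID, without its version, from a table of 57820 IDs, and all 10 were found with counts above 0 in both libraries. The counts come from ribosome profiling, in which an RNase trims mRNA outside bound ribosomes and the protected fragments, or footprints, are sequenced. The samples were 2 libraries of HEK293, an established human embryonic kidney line, both from cells given DMSO vehicle for 12 h. They form 1 group. Replicate 1 carries batch number 1 and replicate 2 batch number 2, and no treatment or genotype was compared. Replicate 1 held 865838 footprint counts and replicate 2 held 611266. Apart from the batch number, no label says that the libraries came from separate cultures, so the SD over n = 2 may be partly technical.

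ATP synthase uses the proton gradient across the inner mitochondrial membrane to make ATP. Protons pass through the membrane part, Fo, and turn a ring of c subunits. The ring turns the central stalk inside the F1 head, where catalysis takes place at the beta subunits of a hexamer of alternating alpha and beta. A peripheral stalk keeps the head from turning with the ring. Most subunits are made in the cytosol and imported, while a few Fo subunits are encoded in mitochondrial DNA. The 3 c subunit genes encode the same mature protein behind different mitochondrial targeting peptides, and the targeting peptide is removed after import.

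The older symbols supplied with the IDs were paired with current ones through the RefSeq gene table. ATP5F1A (older ATP5A1, ENSG00000152234.11) encodes alpha and ATP5F1B (ATP5B, ENSG00000110955.4) encodes beta. ATP5F1C (ATP5C1, ENSG00000165629.15) encodes gamma and ATP5F1D (ATP5D, ENSG00000099624.3) encodes delta, both of the central stalk. Of the peripheral stalk, ATP5PO (ATP5O, ENSG00000241837.2) encodes OSCP, which sits on top of the head. ATP5PB (ATP5F1, ENSG00000116459.6) encodes subunit b, and ATP5PD (ATP5H, ENSG00000167863.7) encodes subunit d. The c subunit genes are ATP5MC1 (ATP5G1, ENSG00000159199.9), ATP5MC2 (ATP5G2, ENSG00000135390.13) and ATP5MC3 (ATP5G3, ENSG00000154518.5). All 10 matched genes are annotated as protein coding.

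Nuclear genes of oxidative phosphorylation are known targets of the transcription factors NRF1 and GABP, a factor of the ETS family. RefSeq promoter windows (GRCh38.p14, 300 bases each) were found for 7 of the 10 genes, with 10 windows in all because some genes have several starts. The letters GCGCATGC or their reverse complement GCATGCGC, the core of the NRF1 motif, occurred in 3 of the 10 windows, 1 of ATP5F1C and 2 of ATP5MC2, and in 3.05% of the 35116 windows of all genes. The ETS core CCGGAAG or its reverse complement CTTCCGG occurred in 2 of the 10 windows, 1 each of ATP5F1A and ATP5PD, and in 10.3% of all windows. Stretches of 60 bases upstream of a start are shown to place these letters, with the match in capitals. For ATP5MC2 only the match before the start farther upstream is shown, because the other match lies downstream of that start. For ATP5F1C both orientations overlap in the capitals. Footprints were counted on hg19 and do not bear on promoters, so a match is a description of the sequence only.
ATP5F1C, chr10:7788117-7788176, plus strand: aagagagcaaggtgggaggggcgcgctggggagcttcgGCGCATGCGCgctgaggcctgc
ATP5MC2, chr12:53676355-53676414, minus strand: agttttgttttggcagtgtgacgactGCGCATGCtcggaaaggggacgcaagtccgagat
ATP5F1A, chr18:46098312-46098371, minus strand: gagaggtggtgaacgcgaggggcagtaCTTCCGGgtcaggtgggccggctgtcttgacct
ATP5PD, chr17:75047038-75047097, minus strand: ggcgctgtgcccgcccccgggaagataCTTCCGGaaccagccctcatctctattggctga

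Together the 10 genes took 2167 counts in replicate 1 and 1632 in replicate 2. The share was 0.250% in the first library, with a 95% exact Clopper-Pearson interval from 0.240 to 0.261, and 0.267% in the second (0.254 to 0.280), a mean of 0.259% ± 0.0118 (SD, n = 2). The intervals overlapped. Without ATP5MC2, left out after its values were seen, the other 9 took 0.243% and 0.251%. Of the library total, 2 IDs that are not members held a large and unequal part; with these left out of the total, the share of the 10 genes was 0.304% in replicate 1 (0.291 to 0.317) and 0.348% in replicate 2 (0.331 to 0.365), and those intervals did not overlap. Intervals here and below hold no more than counting error, and PCR copies without molecular identifiers, which are not independent, can make them too narrow.

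A footprint count grows with the amount of mRNA, with the ribosomes on each mRNA and with coding length. No RNA-seq or coding lengths were used here, so the first of these cannot be told apart from the second, and counts of different genes give the division of footprints, not levels per length. By this measure the footprints were concentrated on the alpha and beta genes of the catalytic hexamer. They held 74.4% of the footprints of the 10 genes in replicate 1 (72.5 to 76.3) and 69.9% in replicate 2 (67.6 to 72.1). The central stalk genes held 7.89% and 8.09%, and the peripheral stalk genes held 5.98% and 5.67%. The c subunit genes held 11.7% in replicate 1 (10.4 to 13.2) and 16.4% in replicate 2 (14.7 to 18.3). The stalk shares overlapped between the libraries, while the hexamer and c shares did not. These shares are parts of 1 total, so the shifts are not separate results, and no other gene group was set beside them. Within the hexamer, ATP5F1A went from 35.9% to 29.2% and ATP5F1B from 38.5% to 40.7%. Within the c genes, ATP5MC2, whose counts are not whole, went from 2.93% to 6.10%. ATP5MC3 went from 7.15% to 8.64% and ATP5MC1 from 1.62% to 1.65%.

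ATP5F1B, the catalytic beta subunit, had 834 counts in replicate 1 and 664 in replicate 2. In counts per 1000000 of the library (CPM) this was 963.2 (95% exact Poisson interval 899 to 1031) and 1086 (1005 to 1172), a mean of 1025 ± 87.0 (SD, n = 2). It ranked 105 and 81 among all IDs by count, and the CPM intervals overlapped. ATP5F1A, the alpha subunit that alternates with beta, had 779 and 476 counts, or 899.7 CPM (838 to 965) and 779 CPM (710.3 to 852), with ranks of 124 and 126. Its CPM intervals also overlapped between the libraries.

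**Figure D1:**
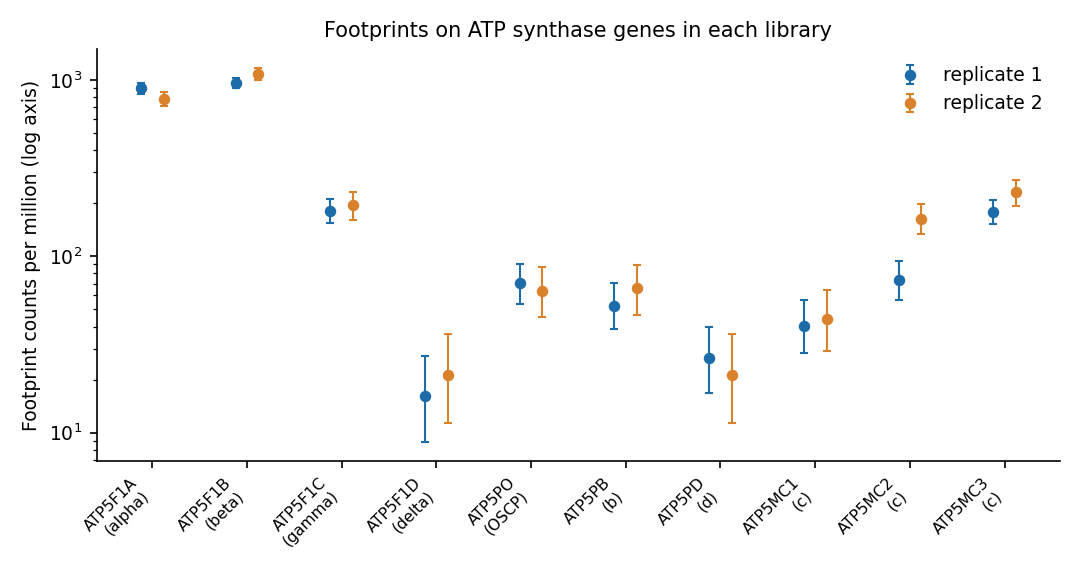
Footprint CPM (log axis) for each of the 10 ATP synthase genes, with replicate 1 in blue and replicate 2 in orange. Points are the libraries and bars are 95% exact Poisson intervals, which cover counting error only. The intervals of 1 gene, ATP5MC2, do not overlap (73.3 against 163 CPM), against 15.4% of all IDs with 20 or more summed counts. CPM is not corrected for coding length.

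The ratio of alpha to beta counts within a library does not depend on how libraries are scaled, and its change between libraries does not depend on coding length. It was 0.934 in replicate 1 (95% exact binomial interval 0.846 to 1.03) and 0.717 in replicate 2 (0.636 to 0.808). The change was -0.38 on the log2 scale (95% exact conditional interval -0.61 to -0.16). Alpha and beta counts were thus near equal in replicate 1 and unequal in replicate 2, by more than counting error. Of the 45 pairs among the 10 genes, 10 had a change interval that excluded 0, 8 of them with ATP5MC2. The alpha and beta pair was 1 of 2 such pairs among the 36 without ATP5MC2. The other was ATP5F1A over ATP5MC3, with a larger change of -0.57 (-0.95 to -0.19). Both use the ATP5F1A counts, and pairs that share a gene are not separate results. Pairs of other IDs were not computed, so a change of this size was not set against the rest of the table.

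The CPM intervals of both central stalk genes overlapped between the libraries. ATP5F1C, whose gamma subunit forms the rotating shaft, had 157 and 119 counts, or 181 CPM (154 to 212) and 195 CPM (161 to 233), a mean of 188 ± 9.44 (SD, n = 2). ATP5F1D, whose delta subunit lies at the foot of the shaft, had 14 and 13 counts, the smallest sum of the 10 genes at 27. Its CPM was 16.2 (8.84 to 27.1) and 21.3 (11.3 to 36.4), and at this depth only a large difference could have been detected.

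The peripheral stalk genes also overlapped between the libraries. ATP5PO had 61 and 39 counts, or 70.5 CPM (53.9 to 90.5) and 63.8 CPM (45.4 to 87.2). ATP5PB had 45.5 and 40.5 counts, or 52.6 CPM (38.9 to 70.9) and 66.3 CPM (46.7 to 89.1). ATP5PD had 23 and 13 counts, or 26.6 CPM (16.8 to 39.9) and 21.3 CPM (11.3 to 36.4). Of these 3 genes, ATP5PB was higher in replicate 2 by CPM and the others in replicate 1, each within counting error.

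The c subunit genes divided their footprints unequally, and the division differed between the libraries. ATP5MC3 had 155 and 141 counts, or 179 CPM (152 to 209.5) and 231 CPM (194 to 272). ATP5MC1 had 35 and 27 counts, or 40.4 CPM (28.2 to 56.2) and 44.2 CPM (29.1 to 64.3). ATP5MC2 had 63.5 and 99.5 counts, or 73.3 CPM (56.9 to 94.4) and 163 CPM (133 to 199), a mean of 118 ± 63.2 (SD, n = 2). It was the one member with more counts in the shallower library. Its CPM intervals did not overlap, which held for 1 of the 10 members and for 15.4% of all IDs with 20 or more summed counts.

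Of the footprints on the 3 c genes, ATP5MC3 held 61.1% in replicate 1 (54.7 to 67.1, as above) and 52.7% in replicate 2 (46.4 to 58.7). ATP5MC2 held 25.0% (20.0 to 31.0) and 37.2% (31.5 to 43.4). ATP5MC1 held 13.8% (9.79 to 18.6) and 10.1% (6.74 to 14.3). The order was the same in both libraries: ATP5MC3, then ATP5MC2, then ATP5MC1. The intervals of ATP5MC2 did not overlap between the libraries, and those of the other c genes did. The shares are parts of the same total and rest on the counts given above, so this is not a separate result. Shares within other gene groups were not computed. The ratio of ATP5MC2 to ATP5MC3 counts was 0.410 (0.304 to 0.556) in replicate 1 and 0.706 (0.543 to 0.923) in replicate 2.

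**Figure D2:**
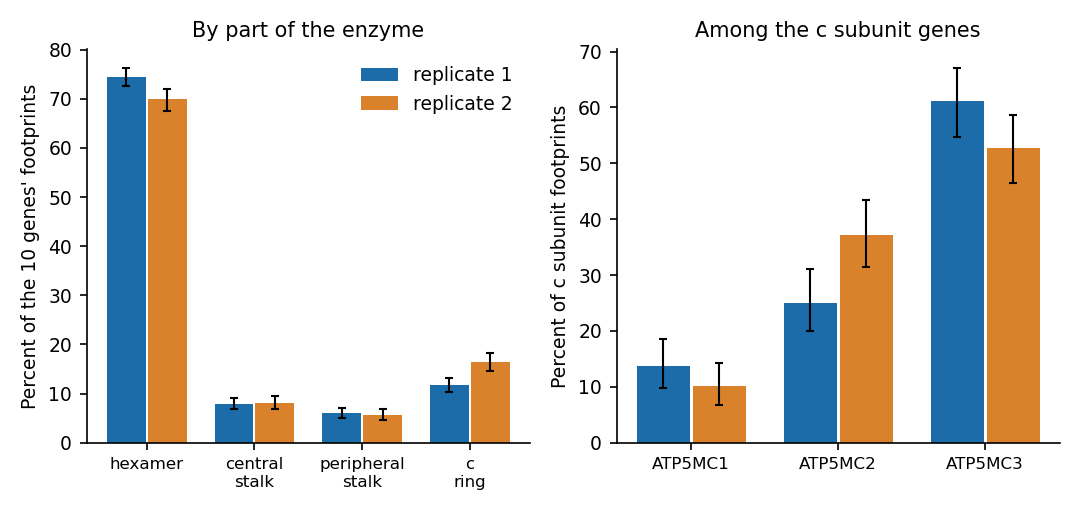
Left, percent of the footprints of the 10 genes on each part of the enzyme; right, percent of the c subunit footprints on each c gene, with replicate 1 in blue and replicate 2 in orange. Bars are single libraries and error bars are 95% exact Clopper-Pearson intervals. The c subunit genes went from 11.7% to 16.4% and ATP5MC2 from 25.0% to 37.2% of the c footprints between replicates 1 and 2.

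The 2 libraries were then compared gene by gene, as log2 of replicate 2 over replicate 1 after TMM scaling, which sets a scaling factor from the bulk of IDs. An ID was called where the 95% exact binomial interval of its ratio lay wholly beyond 2-fold, provided both libraries together held 100 counts or more. Of all such IDs, 0.803% were called, and of the 6 members that passed this minimum, 0 were. With a 1.5-fold limit 4.24% of IDs were called and 1 of the 6 members, ATP5MC2. ATP5PO stood at the minimum with 100 counts and ATP5PB just below it with 86. With batch and replicate confounded, a ratio compares these libraries only, and no p-value was computed.

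A wider rule asked that the interval exclude a ratio of 1, at 20 summed counts or more. It called 26.3% of IDs, 13.4% higher in replicate 2 and 13.0% in replicate 1. Of the 10 members, which all passed this minimum, 3 were higher in replicate 2 and 0 in replicate 1. ATP5MC2 had a log2 ratio of 1.26 (0.79 to 1.73), a difference of 2.39-fold (1.73 to 3.32). ATP5MC3 had a log2 ratio of 0.47 (0.14 to 0.81) and ATP5F1B of 0.28 (0.13 to 0.43). By library size, ATP5F1A also passed this rule, higher in replicate 1, with a log2 ratio of -0.21 (-0.38 to -0.04), against -0.10 (-0.27 to 0.07) after TMM scaling.

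Over the 10 genes the median log2 ratio was 0.26, with 7 above 0 and 3 below, against a median of 0.00 over 6958 IDs (20 or more summed counts, above 0 in both libraries). Library-size scaling shifts every log2 ratio by the same constant, so the gap between the medians could not change. The medians became 0.15 and -0.11, and 7 members stayed above 0 and 3 below. The median absolute log2 ratio was 0.26 for the members and 0.44 for those 6958 IDs. At 100 summed counts or more it was 0.25 for the 6 members and 0.30 for all. Of the members, 9 lay within 1.5-fold, against 61.8% of the 6958 IDs. These shares are not matched for depth. Of the members, 6 of 10 had at least 100 summed counts, against 2241 of the 6965 IDs with at least 20. Intervals of some of the 9, such as ATP5F1D (-0.70 to 1.70), reached past 2-fold.

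ATP5MC2 had the highest log2 ratio of the members at 1.26, and the others ran from -0.21 for ATP5PD to 0.50 for ATP5F1D. The highest value of any group lies outside the range of the rest, so that range alone does not set ATP5MC2 apart. Its interval (0.79 to 1.73) overlapped those of some members, such as ATP5F1D (-0.70 to 1.70) and ATP5PB (-0.24 to 1.05). Those of ATP5F1A, ATP5F1B, ATP5F1C and ATP5PO lay wholly below it. Of the 9 pairs with ATP5MC2, 8 changed by more than counting error, but the pair with ATP5F1D did not (-2.06 to 0.55). All 9 pairs use the same ATP5MC2 counts, so they largely restate its ratio and are not separate results. Of the 6958 IDs, 91.0% had a smaller absolute ratio than ATP5MC2, so ratios of its size occurred elsewhere in the table. That share is not matched for depth. The IDs reach down to 20 summed counts, where counting error is larger, and ATP5MC2 had 163. Among IDs of at least 100 summed counts, 4.24% had an interval wholly beyond 1.5-fold, as ATP5MC2 did. The biological coefficient of variation that edgeR estimated from the pair of libraries was 0.208 for IDs of at least 100 counts and 0.257 for IDs of at least 20. Despite its name, it also holds any batch or technical spread between the libraries.

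**Figure D3:**
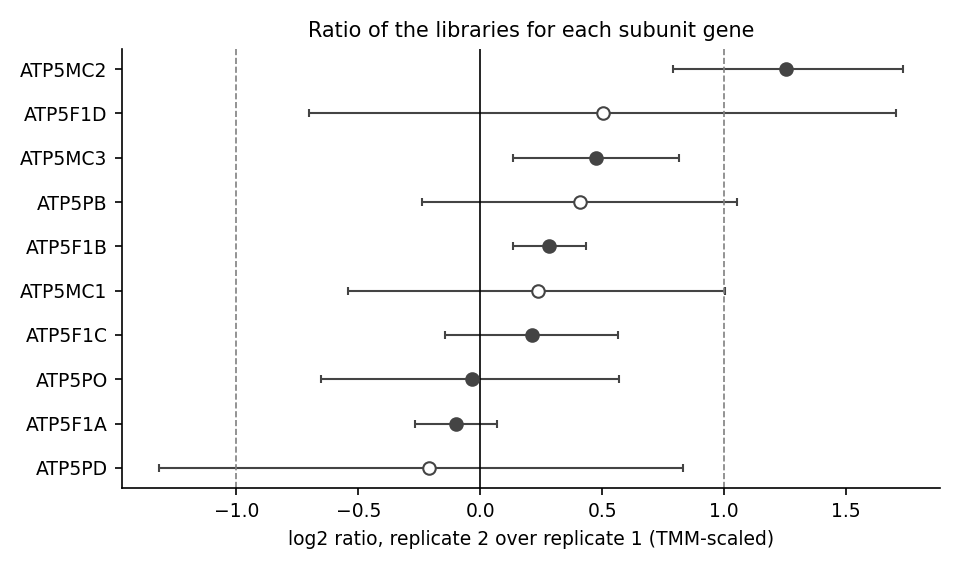
Log2 ratio of replicate 2 over replicate 1 after TMM scaling for each gene, with 95% exact binomial intervals; filled points had at least 100 summed counts and dashed lines mark 2-fold. ATP5MC2 lies at 1.26, with an interval from 0.79 to 1.73 that crosses the 2-fold line, and the other genes lie between -0.21 and 0.50.

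Counts that are not whole were found for 2 of the 10 genes, ATP5MC2 and ATP5PB, and for 20.3% of the 6958 IDs. The rule that divides fragments is not given in the sources used here. Near-identical copies can share fragments: the RefSeq gene table names 8 pseudogenes each after ATP5PB and ATP5MC1, 7 after ATP5F1A, 5 after ATP5MC2, 4 after ATP5PD, 1 each after ATP5F1B, ATP5F1C and ATP5PO, and 0 after ATP5MC3 and ATP5F1D. Of these genes, ATP5MC1, ATP5F1A and ATP5PD had whole counts, and how alike the copies are was not checked. With the rule unknown, the split of fragments between ATP5MC2, its copies and other genes is uncertain. The part of this split in the difference between the libraries was not tested. Rounding the non-whole counts down or up moved the mean c share of ATP5MC2 from 31.1% to 31.0% or 31.3%. Rounding shifts a count by a fraction only, so it does not bear on how fragments were divided.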

How the data were processed

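The authors deposited estimated counts of footprints of 27 to 29 nt per Ensembl ID, unscaled, on hg19 per the submitters' processing notes. Per the labels, each lysate (2 plates of 15 cm) was treated with RNase I, monosome RNA was gel-selected at 20 to 38 nt, and ribosomal RNA was not depleted. The sources used here name no aligner, counter, annotation or strand setting. One count is worth 1.15 CPM in replicate 1 and 1.64 CPM in replicate 2.

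CPM, shares and count ratios between genes used the deposited values; intervals, TMM factors (edgeR 4.0.16, R 4.3.3) and ratios between the libraries used counts rounded to whole numbers, and a value counted as not whole beyond 0.001. TMM factors used IDs with at least 20 summed counts. DESeq2 1.42.0 size factors were an alternative. Python 3.11.15 and scipy 1.17.1 gave the intervals. The steps were tested on simulated libraries that held counting error only. That test does not show how the intervals perform with the further spread between the real libraries.

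All 10 genes are named by rule. Genes, lists, tests and motifs were chosen with earlier results of these data known. Densities per codon, per copy in the enzyme and lists of other ATP synthase, respiratory chain and cell type marker genes were not run, because coding lengths and symbols for other IDs were not at hand.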

Additional observations from a re-analysis of the deposited data

How the results depend on the processing

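The share of the 10 genes, 0.259% of counts, became 0.326% once the 2 highest IDs were taken out of the library size and 0.347% with the 10 highest left out, which follows from the removal itself. Leaving out each replicate gave 0.250% to 0.267%, the values of the single libraries, which says nothing about stability. The count of 0 members beyond 2-fold became 1, ATP5MC2, with a 1.5-fold limit, and was 0 by library size, DESeq2 size factors or a minimum of 20 summed counts. It was also 0 with 99% intervals, which are wider, and without IDs of non-whole counts, which leaves out ATP5MC2, so neither setting bears on stability. With the 2 highest IDs again taken out of the library size, the mean CPM of 9 of the 10 genes rose by more than its SD, such as ATP5F1A from 839 to 1053 and ATP5F1B from 1025 to 1292, again by the removal itself. Leaving out each replicate gave a c share of ATP5MC2 of 25.0% to 37.2% and an alpha to beta count ratio of 0.717 to 0.934, the values of the single libraries; with n = 2 this says nothing about stability. The median absolute log2 ratio of the members ran from 0.23 to 0.26 over its alternatives. Alternatives per codon could not be run. No paired analysis was possible because the design holds 1 group. Depth limits ATP5F1D and ATP5PD, with 27 and 36 summed counts.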
